A study of Mus musculus with 21 samples.

Results

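The 6 libraries compared here are conventional T cells (Tconvs, the T cells that are not regulatory) of the injured mouse heart and of a lymph node that does not drain the heart (NDLN), 3 libraries of each, out of 21 libraries in the series. They were taken by their labels, and all genes were compared. Both groups came from mice 8 weeks old of the genotype Foxp3-GFP, in which a fluorescent protein marks cells that express the regulatory T cell (Treg) factor Foxp3, 7 days after myocardial infarction (MI), so the node cells come from infarcted mice too and no uninjured mouse stands in the comparison. Cells were sorted first with magnetic beads and then by flow cytometry, and very small amounts of RNA were made into libraries with a SMARTer kit. The other 15 libraries are Tconvs of spleen and Tregs of heart, spleen, NDLN and mediastinal lymph node. Whether the 3 replicates of a group are separate animals is not stated, and p-values then measure only how far these libraries differ, which may be technical.

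Conventional T cells that have left a lymph node travel in the blood and enter inflamed tissue by way of selectin ligands, chemokine receptors and integrins. Recognition of antigen through the T cell receptor (TCR) switches on a first wave of genes within hours, among them transcription factors and the phosphatases and inhibitors that end the signal, and raises glycolysis and protein folding capacity. In the heart after an infarct, T cells meet macrophages, fibroblasts and dying muscle cells, and CD4 T cells are known to take part in wound healing there.

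The 6 libraries held 14515387 to 27595186 counts, and the groups differed in what those counts were. In heart Tconvs 13333 to 16239 genes had at least 1 count, and in NDLN Tconvs 9469 to 10991. Mitochondrial rRNA took 0.0567% and 0.102% of the counts in heart Tconvs 1 and 2 and 0.954% in heart Tconv 3, against 7.35% to 12.3% in NDLN, and ribosomal protein genes took 5.6% to 11.8% against 20% to 24.3%. Heart Tconvs 1 and 2 thus stand apart from the other 4 libraries by their mitochondrial rRNA, and heart Tconv 3 lies between them and the node on both measures. Values of the genes described below are therefore given library by library, in the order of replicates 1, 2 and 3. The part that library composition plays in the results was not tested beyond the repeat fits that are given.

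**Figure D1:**
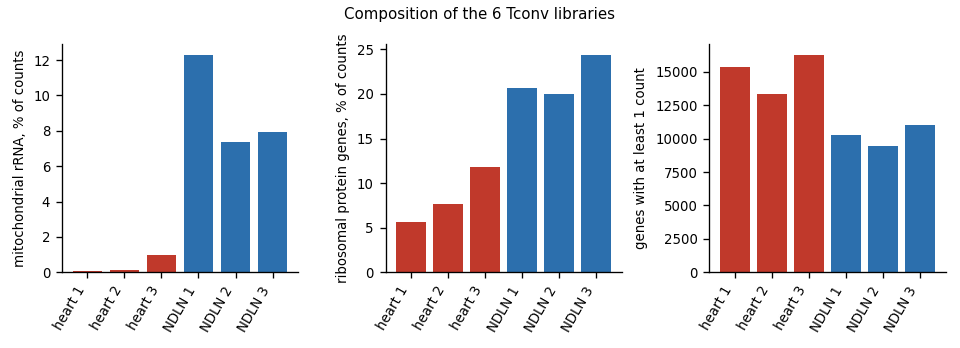
Mitochondrial rRNA (% of counts), ribosomal protein genes (% of counts) and number of genes with at least 1 count, 1 bar per library, in 3 heart (red) and 3 NDLN (blue) Tconv libraries. Heart libraries had at most 0.954% mitochondrial rRNA and at least 13333 genes detected, and NDLN libraries at least 7.35% and at most 10991.

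Genes that check the labels stood as follows, in CPM (counts brought to the same library size by TMM factors, the unit of every single gene level here). Summed levels of lists are in CPM of total counts without these factors, so sums and single gene levels are on different scales. Cd3e, a chain of the TCR complex, was at 267, 226 and 432 CPM in heart and 129, 125 and 50.2 CPM in NDLN. Cd4, the co-receptor of helper T cells, was at 108, 43 and 77 CPM in heart and 83.5, 12.9 and 59.2 CPM in NDLN, levels that overlap (edgeR adjusted p 0.718). Foxp3 had 6 counts in the 3 heart libraries together and 0 in the 3 NDLN libraries. Cd8a, the co-receptor of cytotoxic T cells, was at 6.89, 0 and 0 CPM in heart and at 0 in NDLN. T cell genes were thus present in every library, Treg transcript was near 0, and Cd8a was found in heart Tconv 1 alone.

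Of 14996 genes tested with edgeR, 231 were called higher in heart Tconvs (1.54%) and 201 lower (1.34%) at an adjusted p under 0.05. The median log2 fold change of all genes was 0.48, so values are to be read against that shift. Of the calls, 53.5% were in the higher direction, which became 75.9% when counts were scaled by library totals, 70.9% with DESeq2 and 77.0% with limma-voom. In 16.6% of all genes the 3 heart libraries lay above the 3 NDLN libraries and in 8.06% below. Before adjustment, p was under 0.05 in 12.6% of genes in the higher direction and in 6.03% in the lower one. DESeq2 called 1919 of 13860 genes higher and 787 lower. Counts of list members given below are to be read against these shares of all genes. The genes called higher had a median log2 fold change of 3.98 and those called lower of -1.93, and 68 of the 231 had 3 or fewer counts in NDLN in total, 34 of them none. Median exon length was 4118 bases for genes called higher, 1707 for genes called lower and 3583.5 for all genes tested, and what part length plays was not tested. In bulk RNA, more cells with a transcript and more RNA per cell cannot be told apart.

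**Figure D2:**
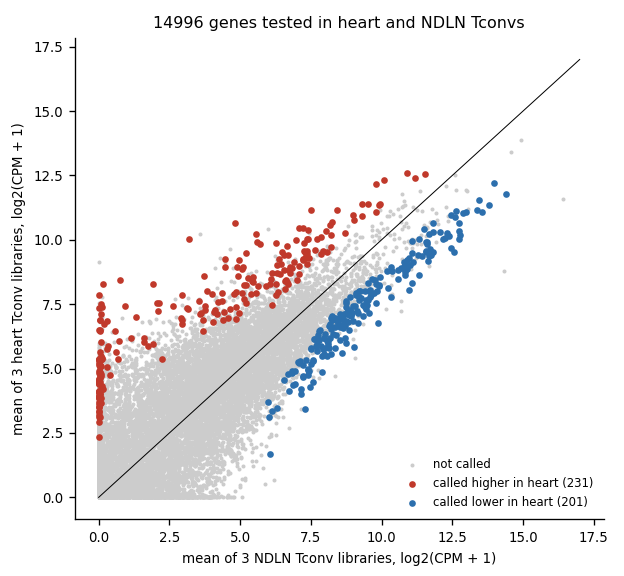
Mean level of each of 14996 genes in 3 NDLN (x axis) and 3 heart (y axis) Tconv libraries, as log2(CPM + 1). The 231 genes called higher in heart (red) lie above the diagonal, many at the left edge where NDLN has few or no counts, and the 201 called lower (blue) lie below it at high NDLN levels.

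Heart Tconv 3, the heart library nearest to the node in mitochondrial rRNA, lay on the called side of all 3 NDLN libraries in 230 of the 231 genes called higher and in all 201 called lower. These genes were called with that library in the fit, so its place in them is largely fixed by their choice. Of the 192 genes called higher without it, it lay above all 3 NDLN libraries in 182 (94.8%), as in 33.5% of all genes, and of the 224 called lower without it, below all 3 in 211 (94.2%), as in 13.6% of all genes. Both counts use the same NDLN libraries as the calls. Of the 231, the exception was Ankrd11, a chromatin regulator named after its values were seen, at 209, 370.4 and 34.8 CPM in heart and 60.7, 28.2 and 13.6 CPM in NDLN. On the log2(CPM + 1) scale, the median difference from the NDLN mean over the genes called higher was 3.57 in heart Tconvs 1 and 2 and 3.33 in heart Tconv 3. Over the genes called lower it was -2.11 in the former and -1.46 in the latter, and the difference was smaller in heart Tconv 3 for 172 of those 201 genes. In number the calls rested on the first pair of heart libraries. Without heart Tconv 1 there were 104 genes called higher and 18 lower, without heart Tconv 2 there were 79 and 17, and without heart Tconv 3 there were 192 and 224. On the NDLN side the count of genes called lower fell to 131 without NDLN Tconv 2 and to 75 without NDLN Tconv 3.

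A fit without the 5 libraries of the series under 0.5% mitochondrial rRNA keeps heart Tconv 3 as the single heart Tconv library, whose spread is taken from the other groups. Such a fit called 25 genes higher and 9 lower, 22 and 6 of them among the calls above. With all other libraries kept and heart Tconv 3 alone, 30 and 3 were called, and with low mitochondrial rRNA as a term, 67 and 13. All 432 genes kept their direction in the 16-library fit and in the fit with the term, which share libraries with the fit that chose them. The median log2 fold change of all genes tested was 0 in the 16-library fit, against 0.48 with 21 libraries. List medians given below with heart Tconv 3 alone are to be read against 0. Where no p with heart Tconv 3 alone is given for a called gene below, nor a statement that its call held, that call was lost in the 16-library fit. Genes called in every setting tried were Cdkn1a, Ifngr1, P2ry10 and Gm33104. No gene called lower was called in every setting, and 69 genes called higher and 11 called lower were called whichever of the 6 libraries was left out.

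**Figure D3:**
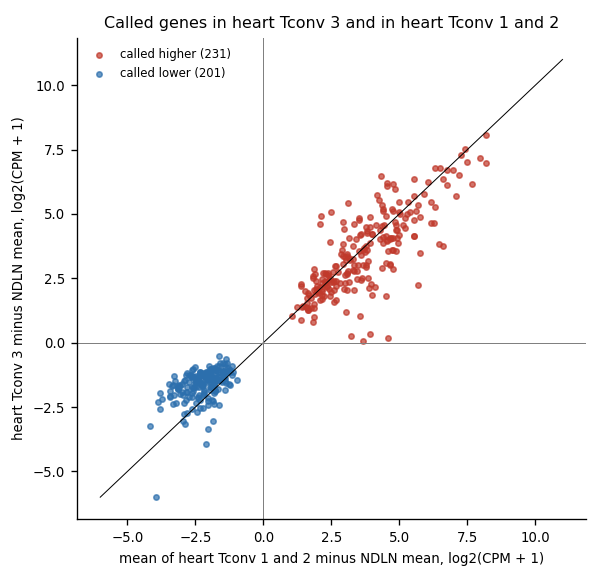
Difference from the NDLN mean on the log2(CPM + 1) scale for the 231 genes called higher (red) and 201 called lower (blue), with the mean of heart Tconvs 1 and 2 on the x axis and heart Tconv 3 on the y axis. Points lie in the same quadrant for both; the genes called lower tend to lie nearer to 0 in heart Tconv 3 (medians -1.46 against -2.11).

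Cdkn1a, which encodes an inhibitor of cyclin-dependent kinases that is induced by p53 and by other signals, had the smallest p of all genes. It was at 159.8, 198 and 189.9 CPM in heart and 0.0586, 0 and 0.0863 CPM in NDLN. All 3 heart libraries lay within a narrow range, and the node held 2 counts in all. The ratio of counts to TMM-scaled library sizes was 4814 (1333 to 39749), heart over NDLN with a 95% counting interval. The edgeR adjusted p was 1.45e-05, and the call held with heart Tconv 3 alone in the 16-library fit. The gene (GRCm38 chromosome 17, 29090976 to 29100727) was the only one called of 15 tested p53 targets, where 1.54% of all genes were called higher. The median of those 15 was 1.5, against 0.48 for all genes. Of 24 cell cycle genes none was called by edgeR in either direction, 5 had an unadjusted p under 0.05 and DESeq2 called 5, all higher. Over all genes, 12.6% had such a p in the higher direction, and DESeq2 called 1919 of 13860 higher. Their summed level was 1005, 1065 and 621 CPM in heart and 329, 467 and 292 CPM in NDLN.

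Ifngr1, the ligand-binding chain of the interferon gamma receptor (GRCm38 chromosome 10, 19591949 to 19610229), was at 2662, 2112 and 2046 CPM in heart and 218, 236 and 88.7 CPM in NDLN. Each heart library was several times above each node library, with a log2 fold change of 3.65 ± 0.55 (SE) and an edgeR adjusted p of 0.00244. P2ry10, a G protein coupled receptor of lymphocytes (GRCm38 chromosome X, 107088492 to 107104974), was at 590.1, 430.2 and 572 CPM in heart and 113, 79.8 and 66.2 CPM in NDLN, a log2 fold change of 2.62 ± 0.36 and an edgeR adjusted p of 9.28e-04. The predicted gene Gm33104 was at 71.9, 88.9 and 111 CPM in heart and 0.0586, 0 and 0 CPM in NDLN. The 16-library fit gave adjusted p values of 0.0396 for Ifngr1, 0.0337 for P2ry10 and 0.0213 for Gm33104. P2ry10 and Gm33104 were named after their values were seen.

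Early genes of TCR signalling were called in the higher direction alone. Of 29 in the list, 9 were called higher and 0 lower, where 1.54% of all genes were called higher. The median log2 fold change was 2.23, against 0.48 for all genes, and 2.23 with heart Tconv 3 alone, against 0 for all genes in that fit. In 17 the heart libraries lay above all NDLN libraries (16.6% of all genes), and in 19 heart Tconv 3 did. Atf3, a stress-induced transcription factor, was at 233, 179 and 70.9 CPM in heart and had 0 counts in NDLN, and the level was at least 2815-fold higher when NDLN is set at 3 counts over its group (edgeR adjusted p 0.00708). Junb, a subunit of the AP-1 transcription factor, was at 1153, 2104 and 1012 CPM in heart and 129, 261 and 54.4 CPM in NDLN (edgeR adjusted p 0.00837). Nr4a3, a nuclear receptor that TCR signals induce, was at 395, 171 and 124 CPM in heart and 19.6, 0.0418 and 0.604 CPM in NDLN (edgeR adjusted p 0.0389). In all 3 genes each heart library lay above each node library.

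Genes that restrain signalling were among those called. Rgs1, which shortens signals from chemokine receptors, was at 3643, 5808 and 4218 CPM in heart and 1154, 1064 and 449 CPM in NDLN (edgeR adjusted p 0.0106). Rgs2, of the same family of G protein regulators and listed with the residency genes, was at 2694, 2242 and 1929 CPM in heart and 433, 488 and 103 CPM in NDLN (edgeR adjusted p 0.0417). Zfp36, which marks cytokine mRNAs for decay and was named after its values were seen, was at 796, 897 and 1375 CPM in heart and 200.1, 119 and 59.4 CPM in NDLN (edgeR adjusted p 0.0411). None of the 3 genes overlapped between the groups. Dual-specificity phosphatases, which switch off MAP kinases, had 4 of 17 members called higher and 0 lower: Dusp2, Dusp5, Dusp10 and Dusp28. Over all genes, 1.54% were called higher. Dusp10 was at 437, 339.8 and 381 CPM in heart and 42.1, 31.9 and 14.3 CPM in NDLN, and Dusp2 at 540.5, 653 and 297 CPM in heart and 72.3, 11.1 and 16.8 CPM in NDLN. Cd69, the best known early surface marker, was at 1991, 1762 and 2101 CPM in heart and 1526, 1218 and 747 CPM in NDLN, above every NDLN library in all 3 heart libraries, and did not pass (edgeR adjusted p 0.339).

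NF-kB is the transcription factor family that TCR, TNF and danger signals share, and its inhibitors are themselves its target genes. Of 15 genes in a list drawn up after earlier results were seen, 7 were called higher and 0 lower, where 1.54% of all genes were called higher. Their median was 2.23, against 0.48 for all genes, and 2.09 with heart Tconv 3 alone, against 0 for all genes in that fit. The 7 were inhibitors and adaptors, namely Nfkbia, Nfkbib, Nfkbie, Nfkbid, Tnfaip3, Birc3 and Traf1, and none was a subunit. Nfkbia, the inhibitor that holds NF-kB in the cytoplasm (GRCm38 chromosome 12, 55489410 to 55492647), was at 2437, 1956 and 3668 CPM in heart and 817, 680.2 and 420.5 CPM in NDLN. Heart Tconv 3 had the highest level of all, and edgeR gave a log2 fold change of 2.07 ± 0.42 and an adjusted p of 0.0109, or 0.0377 with that library alone. Traf1, an adaptor of TNF receptors, was at 326, 414 and 323 CPM in heart and 57.8, 111 and 33.3 CPM in NDLN (edgeR adjusted p 0.00507). Nfkbie, another inhibitor, was at 38.6, 14.7 and 77.1 CPM in heart and 0.0586, 0.0418 and 0.0863 CPM in NDLN, with 3 counts in all of NDLN. Tnfaip3, the ubiquitin-editing enzyme known as A20, was at 1181, 1456 and 645 CPM in heart and 263, 315 and 121 CPM in NDLN (edgeR adjusted p 0.0413). Of the subunits, Rel was at 161, 157 and 105 CPM in heart and 103, 28.6 and 18.1 CPM in NDLN and Nfkb1 at 131, 155 and 45 CPM in heart and 60.6, 3.01 and 30.1 CPM in NDLN, and neither passed (edgeR adjusted p 0.169 and 0.232).

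Receptors and ligands of the TNF family, which carry costimulation and death signals, were called in the higher direction alone. The calls were 4 of 20 receptors and 2 of 13 ligands, where 1.54% of all genes were called higher. Tnfrsf1b, the second TNF receptor (GRCm38 chromosome 4, 145213463 to 145246870), was at 107, 151 and 81.8 CPM in heart and 0.0586, 0 and 0.604 CPM in NDLN, with 8 counts in all of NDLN. Its log2 fold change was 9.15 ± 1.17 and its edgeR adjusted p 7.86e-04, or 0.0247 with heart Tconv 3 alone. Tnfrsf4, the costimulatory receptor OX40, was at 645, 581 and 836 CPM in heart and 36.1, 216 and 28.3 CPM in NDLN (edgeR adjusted p 0.0189). NDLN Tconv 2 stood above the other node libraries in Tnfrsf4, still under every heart library. Tnfrsf9, the costimulatory receptor 4-1BB, was at 91.2, 42.8 and 50.3 CPM in heart and 3.34, 0.0835 and 4.83 CPM in NDLN, and Tnfrsf12a, the receptor of the cytokine TWEAK, was at 30.3, 22.9 and 15.9 CPM in heart and at 0 in NDLN. Tnfrsf18, the receptor GITR, was at 224, 159.8 and 729 CPM in heart and 143, 125 and 94.9 CPM in NDLN and did not pass (edgeR adjusted p 0.0705).

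Tnfsf11, the ligand RANKL (GRCm38 chromosome 14, 78277445 to 78308043), had the highest fitted fold change of the genes named by rule. It was at 374, 169.8 and 143 CPM in heart, had 0 counts in NDLN, and was at least 3968-fold higher (edgeR adjusted p 0.00713). Its level in heart Tconv 1 was more than that of the other heart libraries, and spleen Tconvs were at 2.34, 8.18 and 0 CPM. Fasl, the ligand of the death receptor Fas, was at 318, 321 and 295 CPM in heart and 0.0586, 0 and 0.259 CPM in NDLN (edgeR adjusted p 0.0202). The heart libraries agreed closely in Fasl, and the node held 4 counts. Both calls were lost with heart Tconv 3 alone, with adjusted p values of 0.103 for Tnfsf11 and 0.109 for Fasl.

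**Figure D4:**
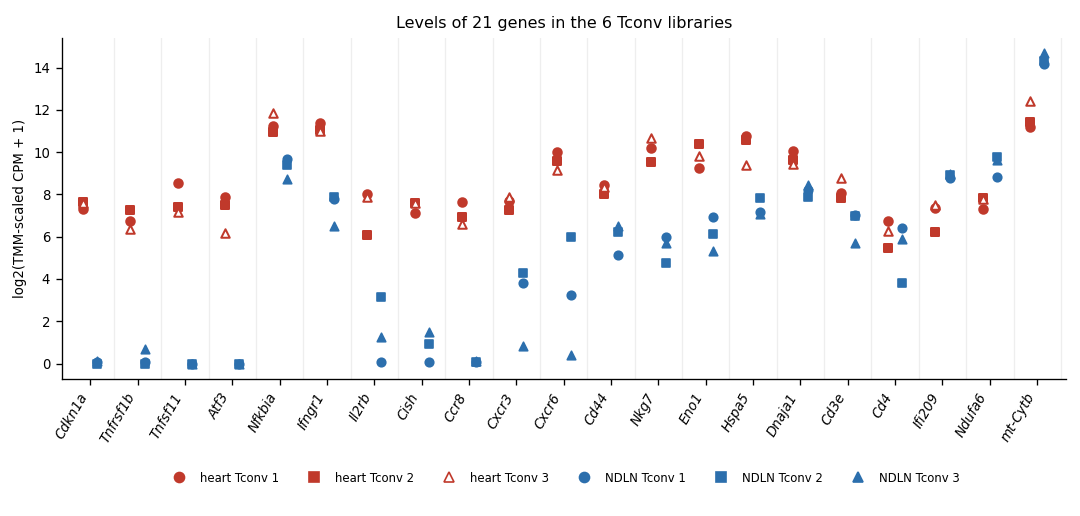
Levels of 21 genes as log2(CPM + 1) in each of the 6 Tconv libraries, heart in red (replicate 3 as an open triangle) and NDLN in blue. Genes from Cdkn1a to Dnaja1 sit higher in heart, many near 0 in the node; Cd4 overlaps, and Ifi209, Ndufa6 and mt-Cytb sit lower in all 3 heart libraries.

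Genes of entry into tissue and of residence there were likewise called only as higher in heart Tconvs. Of 21 tissue homing and adhesion genes, 5 were called higher and 0 lower, and in 14 the groups did not overlap. The median log2 fold change was 3.39, and 2.27 with heart Tconv 3 alone. Residency genes had 5 of 17 called higher and 0 lower, 14 without overlap and a median of 4.34, or 2.87 with heart Tconv 3 alone. Over all genes, 1.54% were called higher and 16.6% did not overlap in that direction, shares that serve for the later lists too. Lists share members: Itgae counts in both of these, and Rgs1 and Nr4a3 count as residency and as early TCR genes. Of 16 chemokine receptors, 2 were called by edgeR and 12 by DESeq2, all higher. Ccr8, a chemokine receptor of skin-homing and tissue T cells, was at 197, 123 and 95.8 CPM in heart and 0.0586, 0.0418 and 0.0863 CPM in NDLN, a count ratio of 2414 (826 to 11704) and an edgeR adjusted p of 0.00433. Cxcr3, the receptor for chemokines that interferon gamma induces, was at 205, 152 and 234 CPM in heart and 12.9, 18.3 and 0.777 CPM in NDLN (edgeR adjusted p 0.0302). Cxcr6, whose ligand is made in many inflamed tissues, was at 1038, 756 and 577 CPM in heart and 8.62, 63.3 and 0.345 CPM in NDLN and did not pass (edgeR adjusted p 0.0973). The groups did not overlap in Cxcr6, and the node libraries spread widely. Bhlhe40, a transcription factor that helper T cells need to make several cytokines and a residency gene here, was at 997, 1282 and 827 CPM in heart and 1.88, 19.3 and 3.37 CPM in NDLN (edgeR adjusted p 0.0301). Itgae, the integrin chain CD103 of resident T cells, was at 4.37, 47.6 and 0.350 CPM in heart and 0.0586, 0 and 0.173 CPM in NDLN (edgeR adjusted p 0.0493), a call that rests mostly on heart Tconv 2.

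Selplg, the ligand of P-selectin that starts rolling on the vessel wall, was at 645, 871 and 664 CPM in heart and 226, 136 and 105 CPM in NDLN, a log2 fold change of 2.22 ± 0.46 (edgeR adjusted p 0.0136). Cd44, a receptor of hyaluronan and a marker of antigen-experienced T cells, was at 349, 255 and 323 CPM in heart and 34.5, 73.1 and 90.9 CPM in NDLN, a log2 fold change of 2.22 ± 0.56 (edgeR adjusted p 0.0330). Both genes were higher in each heart library than in each node library. Ccr2, the receptor for monocyte-attracting chemokines, was at 323, 354 and 193 CPM in heart and 0.0586, 92.4 and 24.6 CPM in NDLN and did not pass (edgeR adjusted p 0.181). Nkg7 and Klrg1, markers of effector lymphocytes, are given with the cytotoxic genes.

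Genes of naive cells and of lymph node homing held no call. None of 18 was called by edgeR in either direction, while 2 had an unadjusted p under 0.05 in each direction and DESeq2 called 1 in each. Their median log2 fold change was -0.40, or -0.57 with heart Tconv 3 alone. It turned to 0.10 with scaling by library totals and to 0.21 without NDLN Tconv 1. The median of all genes moved as well, from 0.48 to 0.95 and 0.78, so the list lay below all genes in each of these fits. Ccr7, the chemokine receptor that guides cells into the node, was at 854, 1112 and 596 CPM in heart and 458, 218 and 123 CPM in NDLN, above the node in every heart library and without a call (edgeR adjusted p 0.174). Tcf7 and Lef1, transcription factors of naive and memory cells, were at 275, 669.6 and 214 CPM and 210.1, 262 and 198 CPM in heart and at 318, 306 and 188 CPM and 415, 234 and 359 CPM in NDLN. Klf2 and its target S1pr1, which lets cells leave a node, were at 197, 175 and 118 CPM and 479, 99.3 and 347 CPM in heart and at 511, 198 and 72.5 CPM and 432, 208 and 181 CPM in NDLN. In all 4 genes the groups overlapped.

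Cytokine receptors and their feedback genes were next. Of 19 receptors, 3 were called higher and 0 lower: Ifngr1, Il2rb and Il1rl1. Il2rb, the signalling chain shared by the receptors of interleukins IL-2 and IL-15, was at 261, 66 and 232 CPM in heart and 0.0586, 7.98 and 1.38 CPM in NDLN (edgeR adjusted p 0.00641). Il1rl1, the receptor of the alarmin IL-33, was at the low levels of 8.51, 7.38 and 4.15 CPM in heart and at 0 in NDLN, and was at least 117-fold higher (edgeR adjusted p 0.0436). Il18rap, a chain of the IL-18 receptor, was at 222, 79.7 and 81.6 CPM in heart and 0, 4.38 and 0.173 CPM in NDLN (edgeR adjusted p 0.0343). Cish, a feedback inhibitor that STAT5 induces below the IL-2 receptor, was at 136, 189.6 and 195 CPM in heart and 0.0586, 0.919 and 1.81 CPM in NDLN. The 3 heart libraries lay close together in Cish, and the log2 fold change was 7.56 ± 1.00 with an edgeR adjusted p of 7.86e-04, or 0.00972 with heart Tconv 3 alone. Socs1, another feedback inhibitor, was at 38.1, 80.5 and 74.6 CPM in heart and 11.4, 12 and 0.950 CPM in NDLN and did not pass (edgeR adjusted p 0.232).

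Helper lineage lists separated unevenly. Of 15 Th1 genes, 2 were called higher and 0 lower, 11 did not overlap, and the median was 4.18, or 4.28 with heart Tconv 3 alone. Ifng, the Th1 cytokine, was at 732, 179.6 and 515 CPM in heart and 57.3, 20.9 and 0.173 CPM in NDLN, without overlap and with a wide spread in each group (edgeR adjusted p 0.303). Tbx21, the transcription factor of Th1 cells, was at 48.8, 3.73 and 10.2 CPM in heart and 0, 0.752 and 0 CPM in NDLN (edgeR adjusted p 0.329). Of 12 Th17 genes none was called by edgeR in either direction, 5 had an unadjusted p under 0.05 and DESeq2 called 5, all higher. Il17a was at 177, 335 and 145 CPM in heart and 0, 0 and 0.259 CPM in NDLN (edgeR adjusted p 0.0608), while its relative Il17f was at 235, 144 and 0.0437 CPM in heart and 0, 0 and 0.259 CPM in NDLN. Heart Tconv 3 thus held Il17a and nearly no Il17f, and the Th17 median went from 2.49 to 0.79 with that library alone.

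Of 7 Th2 genes tested, 2 were called higher by edgeR, Ccr8 and Il1rl1, and 0 lower, while DESeq2 called 5 higher. The Th2 median was 5.12, or 2.08 with heart Tconv 3 alone. In 6 the log2 fold change was positive, and 4 did not overlap in the higher direction. Gata3 and Il4ra were among these 4 and did not pass (edgeR adjusted p 0.281 and 0.0589). The exception was the Th2 cytokine Il4, at 1.26, 14.6 and 18 CPM in heart and 42.6, 48.8 and 24.5 CPM in NDLN. It was lower in every heart library and not called (edgeR adjusted p 0.684). Follicular helper (Tfh) genes had a median of -1.77 over 11 genes, with 0 called higher and 1 lower. That gene was Sh2d1a, an adaptor that T cells need to help B cells, at 109, 109.9 and 202 CPM in heart and 257, 592 and 619 CPM in NDLN and a log2 fold change of -1.80 ± 0.41 (edgeR adjusted p 0.0195). Genes of a Treg identity list, which T cells also turn on when activated, had 4 of 17 called higher and 0 lower, while Foxp3 itself was near 0 as given above. Those called were Tnfrsf4, Capg, Itgae and Klrg1, all given elsewhere here.

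Cytotoxic genes, shared by CD8 T cells and NK cells, had 2 of 15 called higher and 0 lower, Nkg7 and Fasl, the latter given above, and a median of 4.28. Their summed level was 4105, 2845 and 3298 CPM in heart and 201, 136 and 195 CPM in NDLN. Nkg7, a protein of cytotoxic granules, was at 1185, 744 and 1625 CPM in heart and 63.4, 25.8 and 50.6 CPM in NDLN, with an edgeR adjusted p of 0.0100, or 0.00439 with heart Tconv 3 alone. Klrg1, an inhibitory receptor of effector cells that belongs to the Treg identity list here, was at 71.1, 13.5 and 14.6 CPM in heart and 0, 0 and 0.173 CPM in NDLN, and its call was lost with that library alone (adjusted p 0.393). Ccl5, a chemokine of effector T cells, was at 1095, 879 and 2152 CPM in heart and 161, 0.167 and 25.4 CPM in NDLN and Gzmk, a granzyme, at 66.2, 95.8 and 221 CPM in heart and 0, 37 and 18 CPM in NDLN. Neither passed, with edgeR adjusted p values of 0.0968 for Ccl5 and 0.486 for Gzmk, and the groups did not overlap in either. Cd8a was at 0 in heart Tconvs 2 and 3. The part of CD8 T cells or NK cells in these values was not tested further.

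Antigen presentation genes of both MHC classes were called higher, and the heart libraries differed between the classes. MHC class I genes had 3 of 12 called higher and 0 lower. H2-D1, a classical class I chain, was at 4454, 6133 and 4756 CPM in heart and 1518, 928 and 796 CPM in NDLN, a log2 fold change of 2.24 ± 0.45 (edgeR adjusted p 0.0109), and H2-Q6 and H2-Q7 were called too. Class I genes are near-identical to each other, so how reads were split between them is uncertain. Their light chain B2m was at 8032, 9326 and 15537 CPM in heart and 18898, 23126 and 31641 CPM in NDLN, lower in every heart library and not called (edgeR adjusted p 0.0932). Irf1, the transcription factor that interferon gamma induces and that drives class I genes, was at 356, 470.3 and 263 CPM in heart and 37.5, 51 and 26 CPM in NDLN, a log2 fold change of 3.25 ± 0.55 (edgeR adjusted p 0.00505). Over 25 interferon response genes, 1 was called higher and 2 lower, and the median of 0.29 turned to -0.43 without heart Tconv 3.

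MHC class II genes, which dendritic cells, macrophages and B cells express, had 2 of 10 called higher, H2-Aa and H2-Eb1. H2-Aa was at 177, 1.48 and 90.6 CPM in heart and 0.117, 0 and 0 CPM in NDLN, with an edgeR adjusted p of 0.00291, or 0.00786 with heart Tconv 3 alone. Heart Tconvs 1 and 3 carried it and heart Tconv 2 nearly lacked it. Siglech, a marker of plasmacytoid dendritic cells, had the same pattern at 44, 0 and 146 CPM in heart and 0 in NDLN, and Cd74, the class II chaperone, was at 469, 1.11 and 243 CPM in heart and 0.117, 103 and 0.691 CPM in NDLN. Dendritic cell markers had 2 of 8 called higher, with a summed level of 2289.6, 1396 and 1200.4 CPM in heart and 398, 283 and 99.1 CPM in NDLN. Ccr7, which T cells express too, made up much of that sum, which without Ccr7 was 1197, 44 and 591 CPM in heart and 0.204, 94 and 0.551 CPM in NDLN, so heart Tconv 2 lay below NDLN Tconv 2. B cell markers had 0 of 10 called by edgeR (3 higher and 1 lower at an unadjusted p under 0.05, 1 and 1 by DESeq2) and a summed level of 358, 252 and 319 CPM in heart and 426, 595 and 244 CPM in NDLN. Macrophage and monocyte markers had 0 of 11 called higher and 1 lower, Ctss, while 8 had a positive and 2 a negative log2 fold change, with a median of 2.89, or 0 with heart Tconv 3 alone. Their summed level was 2118, 1026 and 1714 CPM in heart and 634, 855 and 956 CPM in NDLN, higher in every heart library. Without Ccr2, Ly6c2 and Ctss, which were set aside after the values were seen, it was 305 CPM in heart Tconv 1, 19.7 and 0.76 CPM in heart Tconvs 2 and 3, and 0.407, 26.9 and 82.3 CPM in NDLN. Csf1r, Fcgr1 and Itgam, which mark these cells, were at 0 in all 6 libraries, and the complement gene C1qb was at 31.8, 0 and 0.0437 CPM in heart and 0.0586, 0 and 0 CPM in NDLN. The part of these cells in other results was not tested.

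Fibroblast genes were close to absent from NDLN and stood unequally in the heart libraries. Their summed level was 13.7, 389 and 237 CPM in heart and 0.305, 0.181 and 1.03 CPM in NDLN. All 13 tested had a positive log2 fold change, with a median of 9.49, and in 12 heart Tconv 3 lay above every NDLN library. In 2 the groups did not overlap, 10 had an unadjusted edgeR p under 0.05 and DESeq2 called 7. The only one called by edgeR was Dcn, a proteoglycan of the extracellular matrix, at 1.13, 58.3 and 16.3 CPM in heart and 0.0586, 0.0418 and 0.0863 CPM in NDLN (edgeR adjusted p 0.0235). Col3a1, a fibrillar collagen, was at 0, 20.5 and 43.3 CPM in heart, and Sparc, a matrix protein, at 0.135, 94.1 and 88.2 CPM. Heart Tconv 1 thus lacked most fibroblast transcripts while heart Tconvs 2 and 3 held them. Smooth muscle and pericyte genes had 2 of 8 tested, neither called by edgeR (both at an unadjusted p under 0.05, 1 higher by DESeq2), and a summed level of 35.1, 31.5 and 46.1 CPM in heart and 0, 0 and 0 CPM in NDLN. In heart Tconv 1 nearly all of it was the potassium channel gene Kcnj8, at 27.3, 13.8 and 20.1 CPM in heart, while the smooth muscle actin gene Acta2 was at 0.0901, 11.4 and 23.7 CPM. Cardiomyocyte genes had 5 of 17 tested and 0 called by edgeR (1 in each direction at an unadjusted p under 0.05, 2 higher and 1 lower by DESeq2). Their summed level was 98.8, 109 and 83.9 CPM in heart and 34.4, 88.5 and 12.6 CPM in NDLN. The genes tested were Actc1, Atp2a2, Pln, Ttn and Actn2. Myh6, Myh7, Tnnt2, Tnni3, Myl2 and Ckm were among those with too few counts to be tested, so the sum does not by itself mark heart muscle RNA. The part of these cells in other results was not tested.

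Glycolysis genes were called in the higher direction alone. Of 16, all had a positive log2 fold change, 4 were called higher and 10 did not overlap, and the median was 2.72, or 1.98 with heart Tconv 3 alone. Eno1, which encodes the glycolytic enzyme enolase, was at 615, 1333 and 901 CPM in heart and 120.3, 68.6 and 39.5 CPM in NDLN. The log2 fold change of Eno1 was 3.64 ± 0.61 with an edgeR adjusted p of 0.00433, or 0.0213 with heart Tconv 3 alone, and Eno1 has a near-identical copy, so its counts are uncertain. Hk2, the hexokinase that commits glucose to the pathway, was at 39.2, 15.1 and 15.2 CPM in heart and at 0 in NDLN, and was at least 400.3-fold higher (edgeR adjusted p 0.0184). Gpi1, the isomerase of the next step, was at 97.9, 195 and 121 CPM in heart and 6.27, 6.26 and 20.8 CPM in NDLN (edgeR adjusted p 0.0180), and Ldha, which turns pyruvate into lactate, at 1450.2, 2614 and 1921 CPM in heart and 609.5, 587 and 329 CPM in NDLN (edgeR adjusted p 0.0245). Hif1a, the oxygen-sensitive transcription factor that drives several of these genes, was at 489, 607 and 433 CPM in heart and 223, 68.1 and 115 CPM in NDLN (edgeR adjusted p 0.0123). Of 13 hypoxia genes, 2 were called higher, and their median went from 1.91 to 0.33 with heart Tconv 3 alone.

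**Figure D5:**
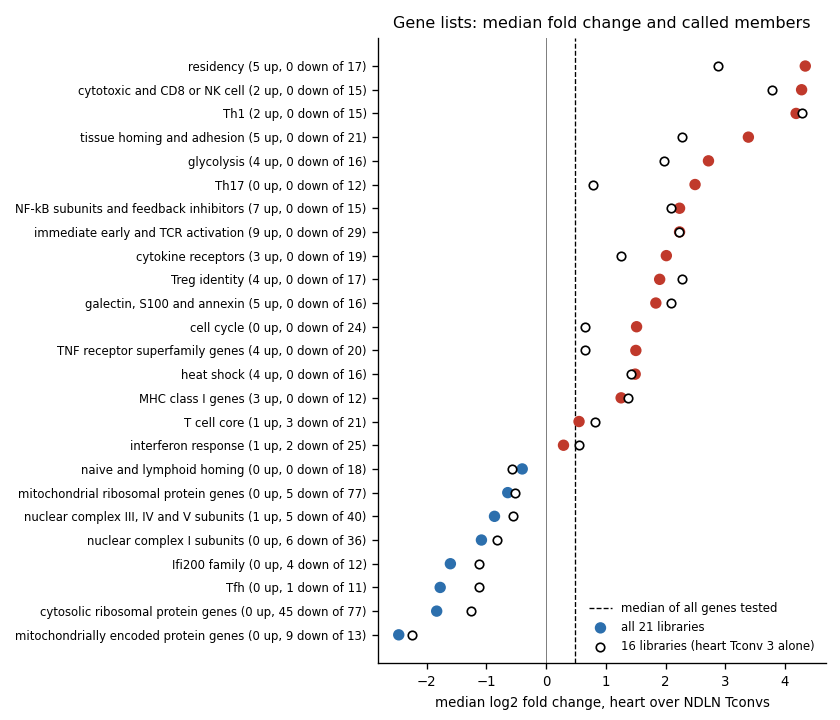
Median log2 fold change (heart over NDLN Tconvs) of 25 gene lists, in the fit of all 21 libraries (filled) and in the fit of 16 libraries with heart Tconv 3 as the single heart Tconv library (open). Numbers give the members called higher (up) and lower (down) of those tested. The dashed line is the median of all genes in the fit of 21 libraries, 0.48, and in the fit of 16 libraries that median was 0.

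Chaperones rose in part. Of 16 heat shock genes, 4 were called higher and 0 lower, 9 did not overlap in the higher direction and 1 in the lower, and the median was 1.49. Hspa5, the chaperone of the endoplasmic reticulum (GRCm38 chromosome 2, 34771970 to 34777547), was at 1746, 1543 and 671 CPM in heart and 143, 224 and 132 CPM in NDLN, a log2 fold change of 2.99 ± 0.46 (edgeR adjusted p 0.00266). Heart Tconv 3 was the lowest heart library in it and still above every node library. Dnaja1, a partner of the cytoplasmic HSP70 chaperones, was at 1067, 778 and 690.2 CPM in heart and 294, 233 and 352 CPM in NDLN, a log2 fold change of 1.53 ± 0.26 (edgeR adjusted p 0.00536). Hspa8, the constitutive HSP70, was at 1935, 3296 and 2799 CPM in heart and 1046, 767 and 367 CPM in NDLN (edgeR adjusted p 0.0166), and Hsp90ab1, the constitutive HSP90, at 761, 1506 and 842 CPM in heart and 313, 176 and 139.7 CPM in NDLN (edgeR adjusted p 0.0180). Against these, the mitochondrial co-chaperonin Hspe1 was at 106, 105 and 176 CPM in heart and 299, 409 and 438 CPM in NDLN, lower in every heart library (edgeR adjusted p 0.0760). Hsp90aa1, the inducible HSP90, was at 76.8, 71.7 and 1118 CPM in heart and 872, 658 and 422 CPM in NDLN, high in heart Tconv 3 and low in heart Tconvs 1 and 2.

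Promoters of heat shock genes carry a short element that heat shock factor binds, and the sequences are shown to set genes with that element beside their unequal levels. The letters GAANNTTC, searched on either strand between 250 bases before and 50 bases after the start in RefSeq promoters of GRCm38.p6, were found in 9 of the 13 heat shock genes with a promoter in the table (69.2%), a gene counting if any of its promoters has a match. The same count gave 9.04% of all 27025 genes, and 7.86% of single promoters. Capitals mark the match. The promoter of Dnaja1 with a match (chr4:40722218-40722517, plus strand), called higher, was followed by that of Hsph1 (chr5:149636287-149636586, minus strand), a large chaperone at 79.6, 37.6 and 44.5 CPM in heart and 31.2, 17 and 10.8 CPM in NDLN that did not overlap and did not pass, and by that of Hspe1 (chr1:55087898-55088197, plus strand), which was lower in heart:
Dnaja1: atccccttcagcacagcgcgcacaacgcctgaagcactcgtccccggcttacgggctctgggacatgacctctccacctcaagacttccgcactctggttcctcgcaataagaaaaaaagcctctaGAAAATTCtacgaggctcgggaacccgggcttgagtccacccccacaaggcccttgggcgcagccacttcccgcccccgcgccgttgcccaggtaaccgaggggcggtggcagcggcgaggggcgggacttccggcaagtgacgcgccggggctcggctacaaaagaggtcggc
Hsph1: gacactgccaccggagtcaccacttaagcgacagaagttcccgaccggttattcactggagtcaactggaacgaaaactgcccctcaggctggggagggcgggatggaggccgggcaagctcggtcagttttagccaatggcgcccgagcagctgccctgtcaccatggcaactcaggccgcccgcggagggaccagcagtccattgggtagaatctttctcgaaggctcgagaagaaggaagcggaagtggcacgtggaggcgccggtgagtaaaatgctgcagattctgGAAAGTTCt
Hspe1: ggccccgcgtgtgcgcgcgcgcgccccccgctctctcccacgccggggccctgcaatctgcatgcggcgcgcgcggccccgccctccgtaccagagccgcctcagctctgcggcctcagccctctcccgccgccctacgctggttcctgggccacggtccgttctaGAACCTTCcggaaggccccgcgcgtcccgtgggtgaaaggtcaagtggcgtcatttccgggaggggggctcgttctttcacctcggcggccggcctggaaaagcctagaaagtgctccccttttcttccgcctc
The other 2 promoters of Dnaja1 in the table lacked these letters. A promoter with the element thus belonged to a gene called higher, to a gene that did not pass and to a gene with lower values. Hspa5 lacked these letters in its window.

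Hspa5 is also a target of the unfolded protein response, the signalling that raises folding capacity of the endoplasmic reticulum. Of 21 genes of that response, a list drawn up after earlier results were seen, it was the only one called, 9 did not overlap in the higher direction, and the median was 1.30. The ER stress element, CCAAT and CCACG with 9 bases of any kind between them, searched in the same way and chosen after these values were seen, was in 7 of the 18 with a promoter in the table (38.9%) and in 0.137% of all genes. It is shown in capitals in the promoter of Hspa5 (chr2:34771840-34772139, plus strand), where an AP-1 match (TGANTCA) was found too:
Hspa5: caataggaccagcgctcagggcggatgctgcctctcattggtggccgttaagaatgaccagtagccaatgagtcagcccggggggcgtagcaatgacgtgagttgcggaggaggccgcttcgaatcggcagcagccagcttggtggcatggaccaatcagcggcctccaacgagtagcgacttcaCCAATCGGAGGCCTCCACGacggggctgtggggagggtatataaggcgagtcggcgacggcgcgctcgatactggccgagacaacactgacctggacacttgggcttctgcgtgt
The other genes with the element were Hsp90b1, Creld2, Calr, Canx, Pdia6 and Syvn1, and none of them was called. The AP-1 letters were in a promoter of 8.97% of all genes, and of 1 of the 21 early TCR genes with a promoter in the table, Tnfaip3.

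Genes of the cytoskeleton, galectins, S100 proteins and annexins had 5 of 16 called higher and 0 lower, with a median of 1.84. Vim, the intermediate filament protein vimentin, was at 369.5, 545 and 530.02 CPM in heart and 103, 118 and 119 CPM in NDLN, with an edgeR adjusted p of 0.00620, or 0.0377 with heart Tconv 3 alone. Lgals3, a galectin of activated cells, was at 375, 368 and 427 CPM in heart and 33.4, 3.55 and 0.173 CPM in NDLN (edgeR adjusted p 0.0204). Anxa1, an anti-inflammatory annexin, was at 178, 69.3 and 106 CPM in heart and 0, 0 and 0.0863 CPM in NDLN and held 1 count in NDLN. Ahnak, a large scaffold protein, was at 256, 252 and 199 CPM in heart and 21.7, 21.5 and 1.73 CPM in NDLN, and Capg, which caps actin filaments, at 372, 706 and 411 CPM in heart and 42.9, 0.0835 and 20.4 CPM in NDLN. All 5 genes were apart between the groups. Vim and Lgals3 are also expressed by fibroblasts and macrophages, whose markers are given above.

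A few further genes named after their values were seen had calls that held with heart Tconv 3 alone. Ubb, a polyubiquitin gene, was at 4629.8, 6362 and 7612 CPM in heart and 1441, 2347 and 1930.1 CPM in NDLN, a log2 fold change of 1.70 ± 0.32 (edgeR adjusted p 0.00752, or 0.0213 with that library alone). Samsn1, an adaptor that dampens lymphocyte signalling, was at 563, 617 and 649.6 CPM in heart and 46.1, 123 and 78.1 CPM in NDLN (edgeR adjusted p 0.00162, or 0.0452). Kdm6b, a demethylase of histone H3, was at 88.9, 103 and 322 CPM in heart and 9.79, 19.1 and 8.37 CPM in NDLN and highest in heart Tconv 3 (edgeR adjusted p 0.00896, or 0.0213). Panx1, a channel that releases ATP, was at 70.3, 20.8 and 31.2 CPM in heart and 0.0586, 0 and 0 CPM in NDLN (edgeR adjusted p 0.00291, or 0.0480). Odc1, the enzyme that starts polyamine synthesis, was at 2122, 2305 and 357 CPM in heart and 43.3, 24.6 and 13.1 CPM in NDLN, several times lower in heart Tconv 3 than in heart Tconvs 1 and 2, and its call was lost with that library alone (adjusted p 0.0719).

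By the size of the fold change, the rule named 12 genes in each direction. Those higher in heart were Tnfsf11, Atf3, Dnajc4, Fech, Irs2, Racgap1, Carhsp1, Nol10, Frrs1, Anxa1, Hk2 and Tnfrsf12a, all but Anxa1 with 0 counts in NDLN. Dnajc4, a member of the J domain co-chaperone family, was at 29.9, 50.1 and 42.8 CPM in heart (at least 723-fold higher, edgeR adjusted p 0.0196). Fech, the enzyme that completes haem, was at 24.2, 31.8 and 61.1 CPM (at least 684-fold higher, edgeR adjusted p 0.0302). Irs2, an adaptor of insulin and IL-4 receptors, was at 61.4, 45.7 and 10.1 CPM, lowest in heart Tconv 3 (at least 683-fold higher, edgeR adjusted p 0.0189). Spleen Tconvs had 25.2, 19.9 and 15.5 CPM of Dnajc4 and 7.4, 4.44 and 25.2 CPM of Fech, so a level of 0 was not shared by that lymphoid tissue. Racgap1, a regulator of cell division, was at 49.7, 41.1 and 16.9 CPM, and Carhsp1, an RNA-binding protein, at 28.6, 45.5 and 28.1 CPM. Nol10, a nucleolar protein, was at 20.1, 33.6 and 33.7 CPM and Frrs1, a ferric reductase, at 16.6, 19.7 and 45.5 CPM. A fitted fold change against 0 counts depends on the prior count, and all 12 calls were lost with heart Tconv 3 alone, though that library lay above the node in each.

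The 12 lower in heart were mt-Nd3, Ppil3, Sdhaf4, mt-Atp6, Ndufaf3, Tmem87a, Smim8, mt-Cytb, Snhg6, Anapc10, Actr6 and Mrps33. Of these, mt-Nd3, mt-Atp6 and mt-Cytb are encoded in mitochondria, Ndufaf3 and Sdhaf4 assemble complexes of the respiratory chain, and Mrps33 is a mitochondrial ribosomal protein. Ndufaf3 was at 15.4, 21.8 and 15.1 CPM in heart and 123, 167 and 137 CPM in NDLN, a log2 fold change of -3.03 ± 0.55 (edgeR adjusted p 0.00711). Sdhaf4 was at 10.8, 8.7 and 26.4 CPM in heart and 54.4, 102 and 263 CPM in NDLN, a log2 fold change of -3.19 ± 0.78 (edgeR adjusted p 0.0288). Mrps33 was at 49.2, 43.6 and 71.3 CPM in heart and 242, 298 and 431 CPM in NDLN, a log2 fold change of -2.56 ± 0.43 (edgeR adjusted p 0.00433). Each was lower in every heart library than in any node library. Ppil3, a peptidyl-prolyl isomerase, was at 21, 6.4 and 28.5 CPM in heart and 193, 135 and 207 CPM in NDLN, and Anapc10, a subunit of the anaphase-promoting complex, at 17.9, 35.8 and 6.51 CPM in heart and 178, 65.9 and 121 CPM in NDLN. In Anapc10 heart Tconv 3 was the lowest library of the 6.

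Genes encoded in mitochondrial DNA were lower in heart Tconvs. All 13 protein genes had a negative log2 fold change, 9 were called lower, where 1.34% of all genes were, and the median was -2.47, or -2.25 with heart Tconv 3 alone. mt-Cytb, cytochrome b of complex III (GRCm38 chromosome M, 14145 to 15288), was at 2359, 2748 and 5484 CPM in heart and 18476, 20582 and 26299 CPM in NDLN. Heart Tconv 3 lay nearest to the node and still well under it, and the log2 fold change was -2.63 ± 0.48 with an edgeR adjusted p of 0.00718, or 0.0213 with that library alone. mt-Nd6, a complex I subunit and the only protein gene on the light strand, was at 135, 105 and 148 CPM in heart and 671, 581 and 679.9 CPM in NDLN (edgeR adjusted p 0.00433). mt-Nd2, another complex I subunit, was at 506, 503 and 403 CPM in heart and 1823, 1637 and 2241 CPM in NDLN, lowest in heart Tconv 3 (edgeR adjusted p 0.00505). The rRNA genes mt-Rnr1 and mt-Rnr2 were at 57.1, 144 and 1125 CPM and 387, 695 and 8196 CPM in heart and at 25544, 13936 and 22324 CPM and 115850, 70719 and 77374 CPM in NDLN. Neither passed (edgeR adjusted p 0.0798 and 0.120), and the protein genes differed far less between the heart libraries than the rRNA genes did.

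Nuclear genes of the respiratory chain were called mostly in the lower direction. Of 36 complex I subunits, 6 were called lower and 0 higher, 22 did not overlap in the lower direction (8.06% of all genes) and the median was -1.08, or -0.82 with heart Tconv 3 alone. Ndufa6 was at 159.7, 228 and 221 CPM in heart and 446, 868 and 793 CPM in NDLN, a log2 fold change of -1.79 ± 0.38 (edgeR adjusted p 0.0158). Ndufb5 was at 113, 109.6 and 135 CPM in heart and 259, 350.5 and 502 CPM in NDLN, a log2 fold change of -1.63 ± 0.37 (edgeR adjusted p 0.0213). Ndufs4 was at 114, 130.02 and 168 CPM in heart and 320.5, 332 and 462 CPM in NDLN (edgeR adjusted p 0.0219), and the groups were apart in all 3 genes. Subunits of complexes III, IV and V had 1 of 40 called higher and 5 lower, with a median of -0.86. Mitochondrial ribosomal proteins had 0 of 77 called higher and 5 lower, with a median of -0.64.

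Cytosolic ribosomal protein genes were the most numerous group among the genes called lower, 45 of 77 tested, with 0 called higher. In 68 the heart libraries lay below all NDLN libraries, and the median was -1.83, or -1.25 with heart Tconv 3 alone. Their summed level was 55049, 75329 and 116341 CPM in heart and 204222, 197766 and 239310 CPM in NDLN, and heart Tconv 3 was the nearest to the node. Rps27a, a ribosomal protein made as a fusion with ubiquitin, was at 453, 448 and 1312 CPM in heart and 6457, 4880.4 and 6679 CPM in NDLN (edgeR adjusted p 0.0165, or 0.0495 with heart Tconv 3 alone). Rpl39, a small protein of the large subunit, was at 219.96, 337 and 409 CPM in heart and 2068, 1578 and 2775 CPM in NDLN (edgeR adjusted p 0.00752). These genes have many processed copies in the genome, so their counts depend on how reads with several matches were treated. With all mitochondrially encoded and ribosomal protein genes left out of the fit, 204 genes were called higher and 143 lower.

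Outside mitochondria and ribosomes, genes of innate sensing and of the TCR complex were among those called lower. The Ifi200 family of nucleic acid sensors had 4 of 12 called lower and 0 higher, with a median of -1.60. Ifi209 was at 165, 74.1 and 179 CPM in heart and 436, 480.1 and 499 CPM in NDLN, a log2 fold change of -1.76 ± 0.34 (edgeR adjusted p 0.00873). Ifi213 was at 131, 106 and 102 CPM in heart and 386, 423 and 716 CPM in NDLN, a log2 fold change of -2.17 ± 0.50 (edgeR adjusted p 0.0216). The family is a cluster of similar genes, so the split of reads between them is uncertain. Ifi27l2a, an interferon-induced gene, was at 692, 896 and 1646 CPM in heart and 2327, 5837 and 6263 CPM in NDLN (edgeR adjusted p 0.0381). T cell core genes had 1 of 21 called higher, Cd3e with an edgeR adjusted p of 0.0394, and 3 lower, and a median of 0.55. Trbc2, a constant region of the TCR beta chain, was at 1109.6, 1114 and 1851 CPM in heart and 2573, 3279 and 2817 CPM in NDLN (edgeR adjusted p 0.0189). Cd3d, the delta chain of CD3, was at 853, 796 and 1454 CPM in heart and 2079.7, 2368 and 3148 CPM in NDLN (edgeR adjusted p 0.0234), opposite to Cd3e. Ptprc, the phosphatase CD45, was at 1108, 1067 and 786 CPM in heart and 2697, 1965 and 1817 CPM in NDLN (edgeR adjusted p 0.0413). Within the TCR complex, then, chains of CD3 stood on opposite sides.

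The Tregs of heart and NDLN share no library with this comparison and give the same contrast in other cells. Of the 231 genes called higher in heart Tconvs, 213 (92.2%) had a positive log2 fold change in Tregs, as 53.4% of all genes did, and 39 were called higher there. Of the 201 called lower, 200 (99.5%) had a negative one, as 46.6% of all genes did, and 13 were called lower. Over all 14996 genes, 80 were called in Tregs, both directions together. Cdkn1a had a log2 fold change of 11.18 ± 1.06 in Tregs (edgeR adjusted p 1.92e-05), Ifngr1 of 3.79 ± 0.56 (0.00310) and Junb of 3.83 ± 0.64 (0.00834). Tnfrsf1b, Il2rb and Cish had 1.14 ± 0.81, 0.20 ± 0.84 and 3.06 ± 0.80 in Tregs, where none was called. A test of the difference between the contrasts called 2 genes of 14996 (0.0133%), Tnfrsf1b and H2-Aa, with 1490 at an unadjusted p under 0.05, 1375 called by DESeq2 and 84 by limma-voom. Heart Treg 1 has a low mitochondrial rRNA share too, 0.0915%, while the other heart Tregs had 3.99% and 4.15% and NDLN Tregs 5.56% to 5.97%. Spleen Tconvs give a second lymphoid level. Every spleen Tconv library lay below all 3 heart libraries in 165 of the 231 genes called higher. In 196 of the 201 called lower, every spleen Tconv library lay above all 3. The share of all genes with these patterns was not computed. The genes were called with these same heart libraries in the fit, so both counts are in part fixed by that choice. They give no separate evidence from spleen.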

How the data were processed

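RNA was measured by sequencing of 21 libraries, 6 of them compared here. Each deposited value is a count of reads for a gene in a library, an integer to which the authors applied no normalization. Per the submitters' processing notes, CASAVA 1.8.2, HISAT2 and HTSeq 0.6.0 were used on build mm10. Annotation, strandedness and handling of multiply matching reads were not given in the sources used here, so reads of a gene and an antisense partner may not be told apart. The table holds 49510 Ensembl IDs and 21 columns, of which 0 were left unused; 49326 IDs had a name in GENCODE M21 (GRCm38), which also gave positions and exon lengths. Depth was 14515387 to 27595186 counts per library compared, so precision is limited by the spread between libraries more than by counting, except where a group has few counts. Counting intervals cover counting error only.

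The edgeR function filterByExpr, given the groups, kept 14996 genes (minimum count 10, total 15). One model in edgeR 4.0.16 (R 4.3.3) took the 21 libraries with TMM scaling and a coefficient per group, so that 7 groups share the estimate of the spread (common dispersion 2.19, a biological coefficient of variation of 1.48). Heart against NDLN Tconvs was tested with edgeR's robust quasi-likelihood F-test, adjusted by Benjamini and Hochberg's method and called at an adjusted p under 0.05. SE was derived from the log2 fold change and F. Gene levels are TMM-scaled CPM (factors 0.798 to 1.35), and the summed level of a list is in CPM of total counts. Where NDLN had 1 to 3 counts, the ratio of counts is given with an exact Poisson 95% interval, and at 0 counts the fold is a limit against 3 counts over the group. Promoters are RefSeq sequences of GRCm38.p6. Replicates of a group differed beyond sampling noise, with log-CPM Pearson's r of 0.663 to 0.804 across genes.

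Named genes are, in each direction, the 12 called genes of the most extreme log2 fold change whose libraries did not overlap and whose higher group reached 20 CPM, without predicted, ribosomal protein and receptor segment genes; up to 4 members of each list with the smallest p; a fixed set of T cell, fibroblast and mitochondrial rRNA genes; and 19 genes added after their values were seen. Some of these genes are not reported here. The members compared and the lists were chosen with earlier results of these data known. DESeq2 1.42.0, limma-voom 3.58.1, other scalings, filters and sets of libraries were tried as alternatives.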

Additional observations from a re-analysis of the deposited data

Results flagged for a closer look

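The difference between heart and NDLN in Tconvs departed from that in Tregs for 2 genes. Tnfrsf1b, the second TNF receptor, was flagged because its log2 difference in Tconvs exceeded that in Tregs by 8.01 ± 1.32 (edgeR adjusted p 0.0450). Heart Tregs were at 252, 122 and 185 CPM and NDLN Tregs at 60.6, 71.6 and 122 CPM, so Tregs held it in both tissues, while NDLN Tconvs were at 0.0586, 0 and 0.604 CPM. This call was lost with library totals (adjusted p 0.0545), with 16 libraries (0.469) and with a replicate block (0.123), and it ranged from 4.63e-04 to 0.162 when 1 library was left out. H2-Aa, a class II MHC chain, was flagged by a difference of 22.52 ± 2.46 (edgeR adjusted p 1.97e-04). Heart Tregs were at 0, 0.119 and 0 CPM and NDLN Tregs at 189, 126 and 96.4 CPM, the reverse of the Tconvs, where heart libraries were at 177, 1.48 and 90.6 CPM and NDLN libraries at 0.117, 0 and 0 CPM. Fitted values of H2-Aa rest on groups with 2 and 3 counts in all and depend on the prior count.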

How the results depend on the processing

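The genes called higher were 231 in the report's fit and 1919 with DESeq2, 808 with limma-voom, 528 with no filter, 116 with the 9 Tconv libraries, 67 with low mitochondrial rRNA as a term, 30 with heart Tconv 3 alone and all other groups, 25 with the 16 libraries at or above 0.5% mitochondrial rRNA, and 21 with the 6 libraries compared. Leaving out each library in turn gave 79 to 212. The genes called lower were 201, and 787 with DESeq2, 105 with library totals, 13 with the term, 9 with the 16 libraries, 7 with the 6 libraries and 3 with heart Tconv 3 alone; leaving out each library gave 17 to 224. The difference between Tconvs and Tregs was called in 2 genes, and in 1375 with DESeq2, 178 with no filter and 84 with limma-voom. It was called in 1 gene with RLE factors, library totals, the 16 libraries, the term, the replicate block or no robust estimation, and in 1 to 40 genes when a library was left out. Fewer libraries in the fit or fewer genes tested account for part of these changes by construction, and for the others the cause was not tested.

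Deviations of same-numbered libraries of the groups had r of 0.012, -0.010 and -0.012 for numbers 1, 2 and 3. Pairs of unlike number had -0.028 to 0.033. Replicates differed too widely for these values to decide whether numbers mark shared animals, which the labels do not state. With a replicate block, 242 genes were called higher and 267 lower.

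No named gene that was called reversed in any setting. Reversals among genes that were not called were as follows. With the 16 libraries, log2 fold changes were -0.47 for Hopx, -0.86 for Il17f, -2.49 for Gsn, 0.21 for Ltb, -0.36 for Tcf7, 0.35 for Pecam1 and 0.76 for Hsp90aa1. With heart Tconv 3 alone they were -0.44 for Hopx, -0.84 for Il17f, -2.41 for Gsn, 0.24 for Ltb, -0.32 for Tcf7, 0.38 for Pecam1 and 0.80 for Hsp90aa1. With the term they were 5.04 for Ltb, -0.73 for Tcf7, 0.27 for Pecam1, 0.68 for Jchain and 1.03 for Hsp90aa1. Pecam1 was 0.19 with library totals and 0.046 with limma-voom, where S1pr1 was -0.043. Leaving out each library in turn gave -4.24 to 0.98 for Birc5, -0.021 to 0.59 for Stmn1, -0.66 to 0.76 for Pecam1, -8.30 to 3.31 for Spp1, -0.34 to 0.67 for S1pr1, -1.12 to 0.26 for Klf2 and -0.15 to 0.80 for Tcf7. Depth limits the genes with few NDLN counts, whose fold changes are lower limits or have wide intervals.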

Other observations

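Small GTPases of the Arf and Rab families, which direct vesicle traffic, had 5 of 48 members called higher in heart Tconvs and 0 lower: Arf1, Arf4, Arf6, Rab7 and Rab8b. Arf4 was at 806, 836 and 627 CPM in heart and 283, 250.04 and 202 CPM in NDLN, a log2 fold change of 1.63 ± 0.30 (edgeR adjusted p 0.00718). Rab7, of late endosomes, was at 187, 123 and 424 CPM in heart and 23.6, 11.9 and 23.4 CPM in NDLN, highest in heart Tconv 3 (edgeR adjusted p 0.0118). The median of the 48 was 1.35, and 0.68 with heart Tconv 3 alone, where none of the 5 was called.

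Chemokine genes had 0 of 17 called by edgeR (8 higher and 1 lower at an unadjusted p under 0.05, and 10 and 1 by DESeq2), though 9 did not overlap in the higher direction. Xcl1, which attracts cross-presenting dendritic cells, was at 39.7, 34.3 and 64.9 CPM in heart and at 0 in NDLN, and was at least 808-fold higher without a call (edgeR adjusted p 0.0794). The Gimap GTPases of lymphocytes split in direction: Gimap9 was at 202, 277 and 296 CPM in heart and 506, 598 and 678 CPM in NDLN (edgeR adjusted p 0.0334), while Gimap4 was at 1155, 931 and 828 CPM in heart and 654, 475 and 485 CPM in NDLN (edgeR adjusted p 0.151).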
